A study of Mus musculus with 6 samples.

Results

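The genes examined here encode the enzymes and transporters of glycolysis and the response to low oxygen, measured by RNA-seq in pancreatic islets of obese mice with and without an endothelial deletion of Ern1. They were chosen by name, as 34 gene symbols, and 30 of these were among the 11106 genes of the count table. The 30 comprised 19 genes of glycolysis, 3 genes that set the oxygen response (Hif1a, Epas1 and Egln1) and 8 targets of that response without a role in glycolysis. Hk2, Slc16a3, Egln3 and Adm were not analysed here. The knockout group comprised 3 male Ern1fl/fl; VE-cadherin-Cre-ERT2 mice (knockout 11, 12 and 13), in which the Cre recombinase acts in endothelial cells. The control group comprised 3 male Ern1fl/fl littermates (floxed 8, 18 and 19). Both groups were given tamoxifen, 2 mg on each of 5 days at the age of 4 weeks, and from 8 weeks of age both ate a diet with 60% of its energy as fat for 16 weeks. Ern1 encodes IRE1α, a sensor of stress in the endoplasmic reticulum, and the study asked how its endothelial form serves the growth of vessels within islets. The libraries are of whole islets, in which endothelial cells are a minority. In every sentence below that gives a value per library, the order is knockout 11, 12 and 13 and then floxed 8, 18 and 19.

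Glycolysis converts glucose to pyruvate in the cytosol. In the mouse beta cell, glucose enters through the transporter encoded by Slc2a2, and pyruvate passes mostly to the mitochondria, because lactate dehydrogenase and lactate transporters are kept low. When oxygen is scarce, prolyl hydroxylases such as the one encoded by Egln1 stop marking the HIF alpha proteins for degradation, and the stabilised factors bind the core sequence ACGTG or GCGTG and raise transcription. Their targets include most glycolytic enzymes and also genes of mitophagy, histone demethylation and matrix synthesis, so enzymes and targets without a metabolic role can be read side by side. HIF alpha proteins are controlled mainly through their stability, which mRNA counts do not measure.

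The core sequence is a common feature of these genes' promoters, and 5 are shown here as examples. They belong to the members with an unadjusted edgeR p below 0.05, a level that 17.9% of all genes tested reached, and 0 of the 5 passed after adjustment. The sequences are the 250 bases before an annotated transcription start, from RefSeq on GRCm38.p6, written 5′ to 3′ on the strand of the gene, with matches to ACGTG or GCGTG on either strand in capitals and overlapping matches merged. Where a gene had several starts, the one with the most matches is shown. The group means of Pfkp, Pgk1 and Pgam1 were lower and those of Pfkfb3 and Kdm3a higher in knockout islets, and the libraries of Pgk1 and Pfkfb3 overlapped between the groups.
Pfkp: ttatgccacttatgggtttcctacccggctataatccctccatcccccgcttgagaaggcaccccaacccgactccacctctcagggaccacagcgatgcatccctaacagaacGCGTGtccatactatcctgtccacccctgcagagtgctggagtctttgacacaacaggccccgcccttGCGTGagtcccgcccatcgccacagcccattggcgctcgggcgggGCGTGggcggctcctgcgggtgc
Pgk1: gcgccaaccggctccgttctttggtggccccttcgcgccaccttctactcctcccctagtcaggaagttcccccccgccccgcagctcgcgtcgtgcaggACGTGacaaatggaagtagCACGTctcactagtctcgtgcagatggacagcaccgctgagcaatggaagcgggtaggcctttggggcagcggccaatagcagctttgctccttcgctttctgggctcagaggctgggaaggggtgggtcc
Pgam1: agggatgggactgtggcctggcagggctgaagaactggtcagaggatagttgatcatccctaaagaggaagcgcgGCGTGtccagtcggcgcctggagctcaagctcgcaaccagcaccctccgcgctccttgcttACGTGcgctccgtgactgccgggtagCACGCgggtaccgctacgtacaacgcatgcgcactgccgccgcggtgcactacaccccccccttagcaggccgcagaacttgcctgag
Pfkfb3: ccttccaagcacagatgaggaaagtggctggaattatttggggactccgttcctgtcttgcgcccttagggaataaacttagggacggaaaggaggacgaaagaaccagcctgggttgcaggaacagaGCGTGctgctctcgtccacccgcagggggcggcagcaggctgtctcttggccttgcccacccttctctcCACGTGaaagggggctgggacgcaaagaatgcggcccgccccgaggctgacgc
Kdm3a: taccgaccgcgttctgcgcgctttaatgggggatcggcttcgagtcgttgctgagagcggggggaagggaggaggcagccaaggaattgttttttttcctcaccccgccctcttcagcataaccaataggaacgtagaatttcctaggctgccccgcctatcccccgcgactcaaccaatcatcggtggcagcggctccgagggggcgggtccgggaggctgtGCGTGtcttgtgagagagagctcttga

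On GRCm38 these windows lie at chr13:6648772-6649021 (minus strand), chrX:106186850-106187099 (plus strand), chr19:41911621-41911870 (plus strand), chr2:11502091-11502340 (minus strand) and chr6:71632918-71633167 (minus strand). Pfkp and Pgam1 held 3 matches each, Pgk1 and Pfkfb3 held 2 each and Kdm3a held 1, which began 27 bases before the start. One match in Pfkfb3, 53 bases before the start, is the palindrome CACGTG, which reads as a match on both strands. RefSeq windows were available for 27 of the 30 members, and 24 of these (88.9%) held at least 1 match in the window with the most matches. The same held for 63.1% of the 8962 genes tested here that had a window, so the sequence was common outside the list too. A gene with more windows has more chances of a match. The 27 members had 45 windows, and windows per gene were not matched between the sets. Eno2, Gpi1 and Tpi1 had no match in these windows. A match is not evidence of binding.

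Total counts ran from 18470720 to 18957444 per library, so a value of 1 CPM, the count scaled to the size of the library, stood for about 19 counts. Ern1 itself read 41.9, 36.0 and 46.8 CPM across the knockouts against 30.1, 44.6 and 46.0 CPM across the controls (log2 fold change 0.046, edgeR adjusted p = 0.920). Cells outside the endothelium keep the gene, so these counts do not check the deletion. The insulin genes Ins1 and Ins2 held from 28.2% to 43.4% of the counts. Floxed 8 stood apart from the other floxed libraries. Its 12 immediate early and heat shock genes held 1.25% of the counts, against 0.226% and 0.215% in floxed 18 and 19 and 1.81% to 1.93% in the knockout libraries. The 14 acinar markers, genes of the exocrine pancreas, held 8.04%, 9.66% and 11.1% of the counts in knockout 11, 12 and 13 and 5.17%, 1.94% and 3.78% in floxed 8, 18 and 19, and for 13 of the 14 all knockouts lay above all controls, against 14.1% of all genes. The 12 measured endothelial markers had a lower mean in the knockout libraries and in floxed 8 (4.70 to 4.82 log2 CPM) than in floxed 18 and 19 (5.29 and 5.21). In bulk libraries, fewer cells of a type and less RNA per cell cannot be told apart.

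Per length, the steps of glycolysis differed widely in transcript level, and Gapdh was the highest member in all 6 libraries. Levels were compared as CPM per kilobase of merged exon. Gapdh, which encodes glyceraldehyde-3-phosphate dehydrogenase, was highest among the 30 members with a mean of 403 CPM per kb over the 6 libraries, followed by Aldoa (aldolase) at 183 and Pkm (pyruvate kinase) at 177. Pgam1 (phosphoglycerate mutase), Gpi1 (glucose-6-phosphate isomerase), Eno1 (enolase), Tpi1 (triosephosphate isomerase) and Pgk1 (phosphoglycerate kinase) lay between 36.1 and 82.9 CPM per kb. The lowest were Hk1, a high-affinity hexokinase, at 1.48, Pfkfb3 at 1.28 and Higd1a, a nuclear gene for a mitochondrial protein, at 1.15 CPM per kb. Among the targets without a role in glycolysis, Ndrg1 (a stress-responsive differentiation gene) and Bnip3 (a mitophagy receptor) were highest, at 49.5 and 33.3 CPM per kb. Aldoa and Pkm differed by less than the spread between libraries, as did Hif1a and Epas1 (8.19 and 8.11 CPM per kb).

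**Figure D1:**
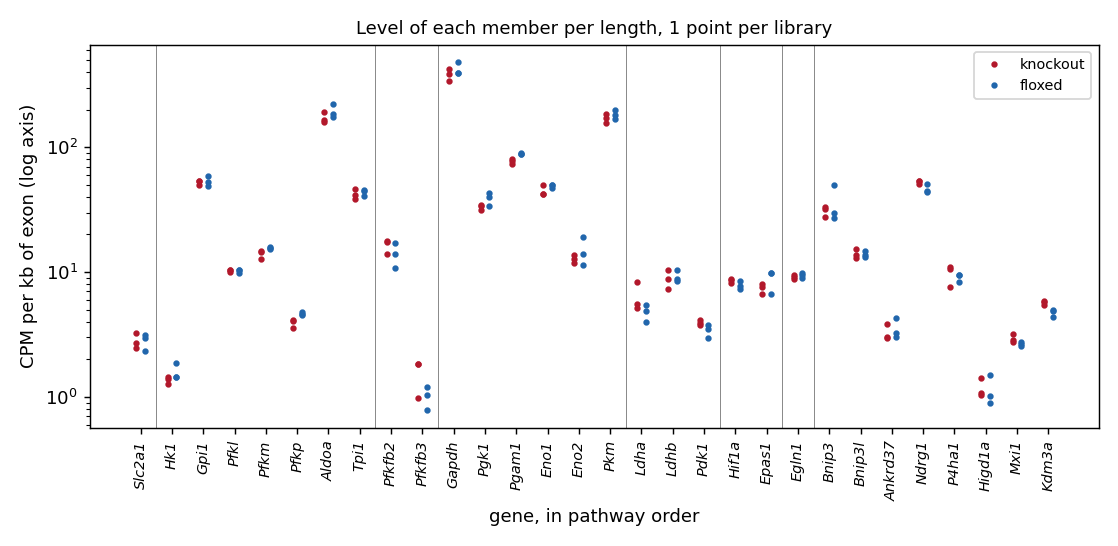
Level of each of the 30 members in CPM per kb of exon (log axis), 1 point per library, genes in pathway order with lines between the role groups. Gapdh, Aldoa and Pkm lie highest in both groups, and Hk1, Pfkfb3 and Higd1a lowest.

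The glucose transporter gene known from mouse beta cells was the more abundant one in all 6 libraries. Slc2a2 was 11.9 to 14.3 times as abundant per kb as Slc2a1, which encodes the glucose transporter GLUT1. Pkm was 18.9 to 42.3 times as abundant per kb as Ldha, the lactate dehydrogenase subunit that favours lactate formation. Of the phosphofructokinase subunits, Pfkm (muscle type) made up 48.4% to 51.6% of the summed CPM per kb, Pfkl (liver type) 33.1% to 38.1% and Pfkp (platelet type) 13.5% to 15.5%. The share of Pfkl was 36.1%, 38.1% and 35.5% in knockout 11, 12 and 13 and 33.5%, 33.8% and 33.1% in floxed 8, 18 and 19. The groups did not overlap, and a share within a library does not depend on how libraries are scaled. The share of Pfkfb4 in the sum of Pfkfb2, Pfkfb3 and Pfkfb4 also separated the groups. It was 5.34% to 7.23% in the knockout libraries and 8.34% to 9.80% in the floxed libraries. In the other isozyme families compared here the shares overlapped. How often such shares separate the groups over all genes was not counted, and 24.3% of all genes did not overlap in CPM. In CPM, Pfkl itself stayed between 36.6 and 39.1 over the 6 libraries, while Pfkm and Pfkp were lower in every knockout library. The higher share of Pfkl thus goes with less Pfkm and Pfkp, and the shares of these subunits are not separate results. The shares of Pfkp were lower in every knockout library (13.5% to 14.03%) than in any floxed library (14.9% to 15.5%). So were those of Pfkm (48.4% to 50.6% against 50.7% to 51.6%). Exons of Pfkp overlap those of Pitrm1, as given below, and that limit holds for all these shares. The means of the Pfkl share were 36.5 ± 1.39% across the knockouts and 33.5 ± 0.348% across the controls (SD, n = 3 mice each), given without a test.

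**Figure D2:**
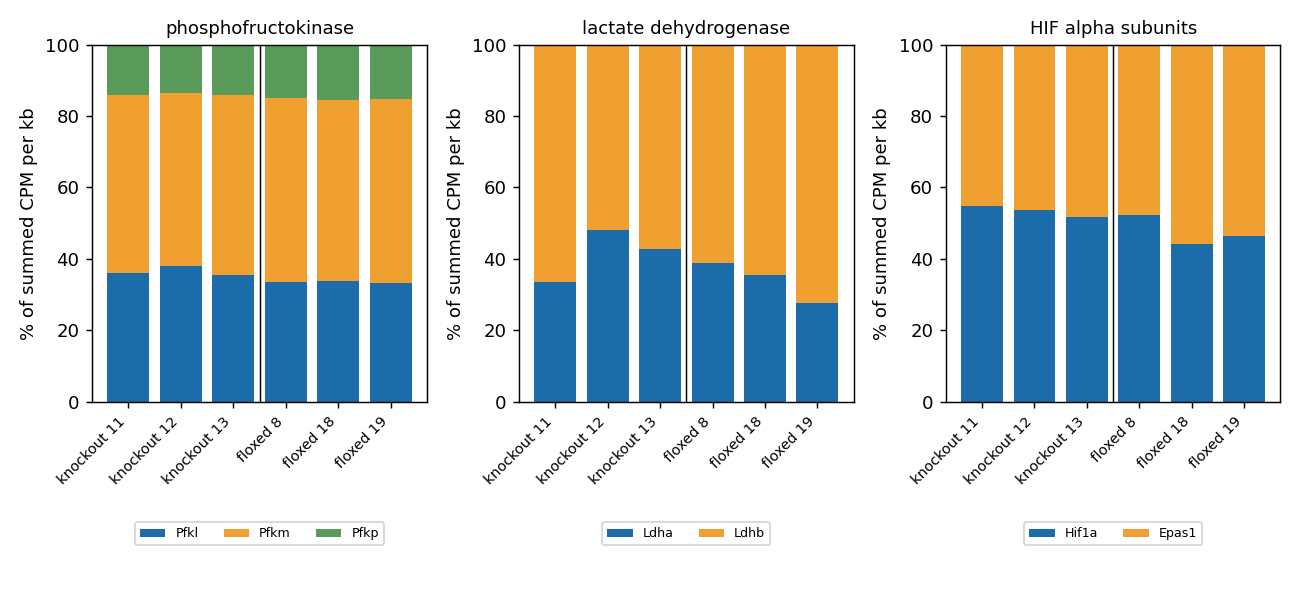
Shares of the summed CPM per kb (in %, stacked bars, 1 bar per library) for the phosphofructokinase subunits, the lactate dehydrogenase subunits and the HIF alpha subunits. Pfkl takes 35.5% to 38.1% in the knockout libraries and 33.1% to 33.8% in the floxed libraries, while the shares of Ldha overlap between the groups.

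Across the 30 members, 0 passed the threshold in the comparison of knockout with floxed islets (edgeR quasi-likelihood test, adjusted p below 0.05 after Benjamini-Hochberg over all genes), against 0.406% of the 11080 genes tested. DESeq2 and limma-voom also called 0 of the 30, against 5.09% and 0.379% of all genes. At an unadjusted edgeR p below 0.05 there were 5, 3 with lower and 2 with higher values, in a table where 17.9% of all genes reached that level (6.96% lower and 11% higher). The groups did not overlap in 5 members, 2 above and 3 below, against 24.3% of all genes (14.1% above and 10.2% below). The members' median log2 fold change was -0.050, beside -0.0029 over all genes tested, and their values ran from -0.25 to 0.63. The intervals give the precision of each difference in whole-islet RNA. They do not bound a change confined to endothelial cells, a minority of the islet. For 29 of the 30 members the 95% interval lay within a doubling or halving in either direction, Pfkfb3 being the exception, against 91.3% of all genes. For 20 it lay within 0.5 on the log2 scale, against 59.5% of all genes.

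**Figure D3:**
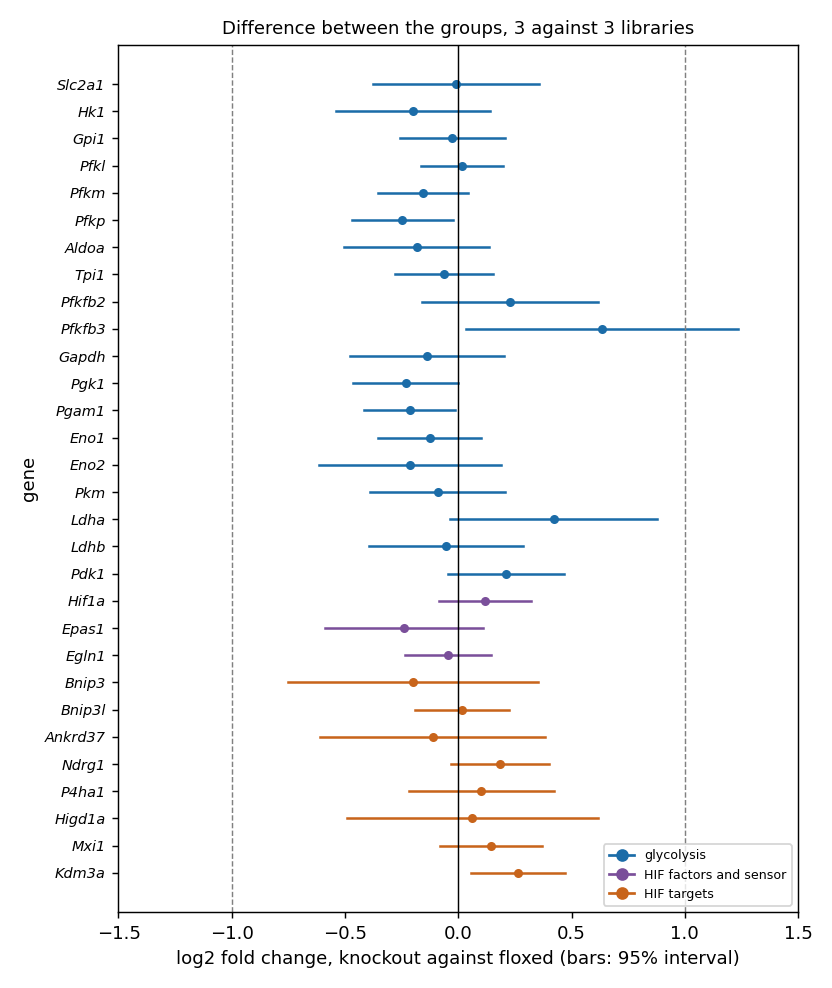
Log2 fold change of each member, knockout against floxed islets (points), with its 95% interval from the edgeR fit (bars), and dashed lines at log2 values of -1 and 1. The points lie between -0.25 and 0.63, and the interval of Pfkfb3 alone reaches past 1.

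Slc2a1 gave close values in both groups. It read 10.5, 7.97 and 8.85 CPM across the knockouts against 9.60, 10.3 and 7.58 CPM across the controls. The highest and the lowest library were thus one of each group, and its log2 fold change was -0.0088 (standard error 0.16, edgeR's adjusted p = 0.986).

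Enzymes of the first and second phases of glycolysis had mostly negative log2 fold changes, and 0 passed, against 0.406% of all genes. Of the 13 enzymes from hexokinase to pyruvate kinase, 12 had negative log2 fold changes, with a median of -0.16, against 50.5% of all genes. Markers of islet endocrine cells leaned the same way. Negative were 8 of 10 beta cell markers (median -0.19), 6 of 6 alpha cell markers (median -0.20) and 3 of 4 delta and PP cell markers (median -0.26). The part of these cells in the enzymes' levels was not tested. With libraries scaled to their totals all 13 enzymes were negative, against 65.9% of all genes. The size of the enzymes' negative majority depended on which libraries were used. It was 10 of the 13 without floxed 8 (49.1% of all genes) and 8 of the 13 without both knockout 12 and floxed 8 (49.6% of all genes, median -0.033). With any other single library left out, 11 to 13 were negative (50.2% to 52% of all genes). All 19 glycolysis genes together summed to 2467, 2112 and 2255 CPM in knockout 11, 12 and 13 and 2685, 2353 and 2365 CPM in floxed 8, 18 and 19, so the groups overlapped. As a share of library totals the same 19 genes held 0.221 ± 0.00692% across the knockouts and 0.254 ± 0.00680% across the controls (SD, n = 3 mice each), with no overlap. The shares of acinar and insulin transcripts in those totals differed too, as given above, and their part in this difference was not tested.

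In the first phase, the platelet-type phosphofructokinase gene Pfkp showed the smallest p. It read 17.4, 15.3 and 17.6 CPM across the knockouts against 19.7, 20.6 and 19.4 CPM across the controls. Every knockout library lay below every floxed library, with a log2 fold change of -0.25 (standard error 0.098, edgeR's adjusted p = 0.234). Exons of Pfkp overlap 748 bases of exons of the opposite-strand gene Pitrm1, and nothing used here states whether counting used strand, so reads of the pair cannot be told apart there. Pfkm read 43.2, 38.5 and 44.5 CPM across the knockouts against 47.6, 47.2 and 45.9 CPM across the controls. These groups did not overlap either, and the log2 fold change was -0.16 (standard error 0.087, edgeR's adjusted p = 0.392). Pfkl, in contrast, ranged only from 36.6 to 39.1 CPM over all 6 libraries and had a log2 fold change of 0.015. Aldoa, the most abundant gene of this phase, read 488, 406 and 425 CPM across the knockouts against 571, 450 and 477 CPM across the controls. Knockout 11 lay above floxed 18 and 19, and the log2 fold change was -0.18 (standard error 0.14, edgeR's adjusted p = 0.540). Hk1, Gpi1 and Tpi1 overlapped between the groups, with log2 fold changes of -0.20, -0.027 and -0.063.

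The genes that tune phosphofructokinase had higher means in knockout islets, and their libraries overlapped. Pfkfb3 encodes a kinase that makes the allosteric activator of phosphofructokinase and is a HIF target. It read 5.43, 10.2 and 10.1 CPM across the knockouts against 5.67, 4.32 and 6.62 CPM across the controls. Knockout 12 and 13 were high, while knockout 11 lay below floxed 8 and 19. Its log2 fold change of 0.63 was the largest among the members (standard error 0.26, 95% interval from 0.034 to 1.23, edgeR adjusted p = 0.253). With the mean log2 CPM of the acinar markers as a covariate the log2 fold change was -0.13 (edgeR adjusted p = 0.958). That mean was 10.96 to 11.3 in the knockout libraries and 8.71 to 10.2 in the floxed libraries. The covariate thus follows the groups, and here and below this fit cannot tell acinar level from genotype. Pfkfb2, a related enzyme and the more abundant one in islets, read 89.0, 69.7 and 86.7 CPM across the knockouts against 54.2, 85.7 and 69.6 CPM across the controls. Floxed 8 alone was low, and the log2 fold change of 0.23 (standard error 0.17, edgeR's adjusted p = 0.531) was 0.068 without it. Exons of Pfkfb2 share 1241 bases with the same-strand gene Gm29427, so its level is uncertain.

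In the second phase, all 6 genes had negative log2 fold changes, from -0.23 to -0.092, against 50.5% of all genes. Of these 6 genes 0 passed, against 0.406% of all genes. They were negative under each way of scaling the 6 libraries. Gapdh, Eno2 and Pkm turned positive without both knockout 12 and floxed 8 (0.034, 0.055 and 0.034), and Eno2 also without floxed 8 alone (0.0084). Pgam1 had the smallest p of this phase, at 142, 129 and 137 CPM across the knockouts against 158, 157 and 160 CPM across the controls. The groups did not overlap, and the log2 fold change was -0.22 (standard error 0.089, edgeR's adjusted p = 0.249). Pgk1 read 61.8, 57.1 and 62.7 CPM across the knockouts against 62.1, 72.8 and 78.4 CPM across the controls. Floxed 8 lay among the knockout libraries, and the log2 fold change was -0.23 (standard error 0.10, edgeR's adjusted p = 0.279). Without floxed 8 Pgk1 fell by 0.33 on the log2 scale and passed (edgeR adjusted p = 0.0241), and without knockout 12 as well it missed the threshold (log2 fold change -0.29, adjusted p = 0.0530). Gapdh read 637, 511 and 574 CPM across the knockouts against 721, 584 and 589 CPM across the controls. The libraries overlapped (log2 fold change -0.14, standard error 0.15, edgeR's adjusted p = 0.678). Gapdh has many processed copies in the mouse genome, 169 annotated pseudogenes among the transcripts that match its own at 90% identity over 200 bases, and its counts held decimals in some libraries, so its level is uncertain. Aldoa, Bnip3, Eno1, Ldha, Pgam1, Pgk1, Pkm and Tpi1 had 2 to 13 such pseudogenes each, and Eno1 also has the near-identical coding gene Eno1b. Eno2, the neuronal and endocrine enolase gene, was 53.5 CPM in floxed 8 and 31.98 to 38.7 CPM in the other 5 libraries.

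At the fate of pyruvate, Ldha and Pdk1 had higher means in knockout islets and Ldhb did not. Ldha read 9.82, 15.6 and 10.5 CPM across the knockouts against 10.2, 9.17 and 7.48 CPM across the controls. Knockout 12 was high, and the other knockout libraries lay close to floxed 8. The log2 fold change was 0.42 (standard error 0.20, edgeR's adjusted p = 0.315) and 0.18 without knockout 12 (adjusted p = 0.710). Knockout 12 also had the highest mean of the 7 measured macrophage markers, 4.69 log2 CPM against 3.01 to 3.60 in the other 5 libraries, and the part of these cells in the level of Ldha was not tested. Pdk1, which encodes a kinase that holds pyruvate back from the mitochondrial dehydrogenase and is a HIF target, read 19.6, 21.6 and 20.4 CPM across the knockouts against 15.4, 19.7 and 18.1 CPM across the controls. Floxed 8 was the lowest and floxed 18 lay just above knockout 11, and the log2 fold change was 0.21 (standard error 0.11, edgeR's adjusted p = 0.368). Ldhb, the subunit that favours pyruvate, had a log2 fold change of -0.054, and per kb it exceeded Ldha by 1.08 to 2.61 times over the 6 libraries.

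**Figure D4:**
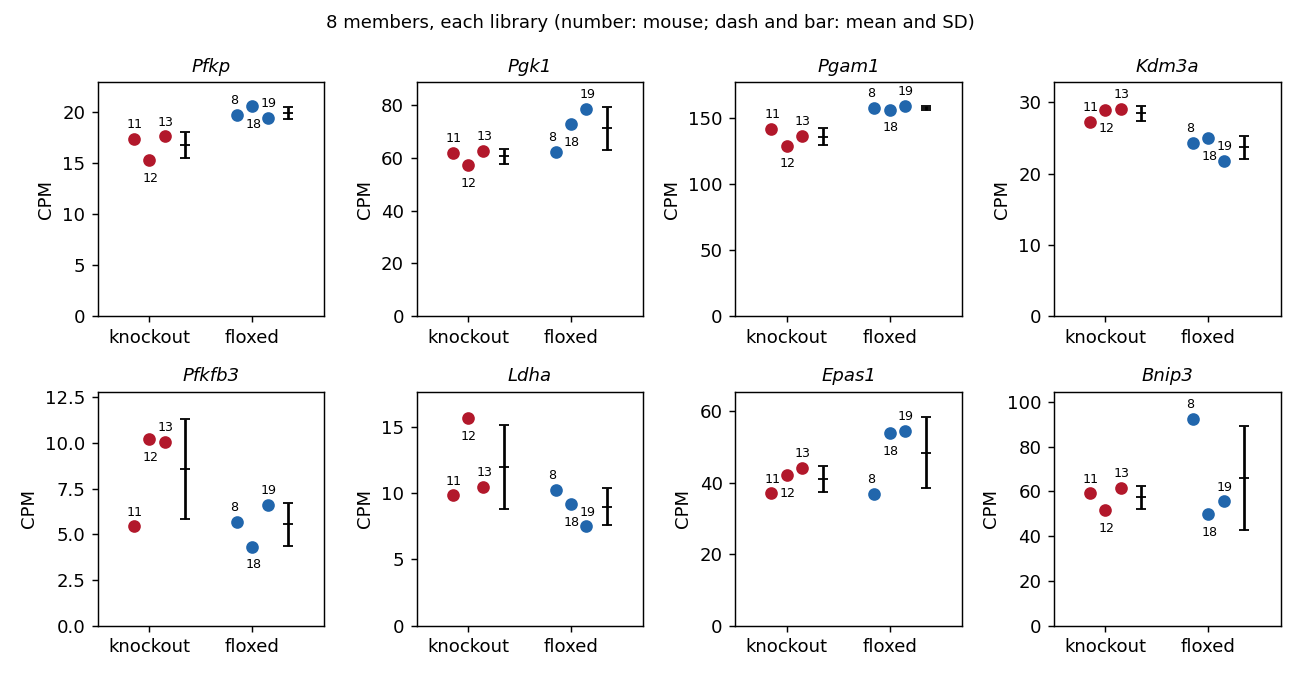
CPM of 8 members in each library, with the mouse number beside each point and the mean with its SD to the right of each group (n = 3). Pfkp and Pgam1 lie lower and Kdm3a higher in all 3 knockout libraries, floxed 8 sits with the knockout libraries for Pgk1 and Epas1, knockout 12 is high for Ldha and floxed 8 is high for Bnip3.

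Among the genes that set the oxygen response, Epas1 was the more variable. Epas1 encodes HIF2α, a HIF alpha subunit that is abundant in endothelial cells. It read 37.0, 42.1 and 44.1 CPM across the knockouts against 36.9, 53.9 and 54.5 CPM across the controls. Floxed 8 was the lowest of all, and the other floxed libraries were the highest. With all libraries the log2 fold change was -0.24 (standard error 0.15, 95% interval from -0.59 to 0.11, edgeR adjusted p = 0.458). Without floxed 8 Epas1 fell by 0.41 on the log2 scale (adjusted p = 0.0130), and without knockout 12 as well it fell by 0.43 (adjusted p = 0.0213). The means of the endothelial markers followed the same division, with floxed 8 at 4.82 log2 CPM near the knockout libraries (4.75, 4.70 and 4.74) and floxed 18 and 19 at 5.29 and 5.21, and their part in the level of Epas1 was not tested. With the acinar covariate the value for Epas1 was 0.18 (adjusted p = 0.876).

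Hif1a, which encodes the widely expressed HIF1α, read 44.4, 48.0 and 46.8 CPM across the knockouts against 39.8, 42.1 and 46.5 CPM across the controls. The groups overlapped, the log2 fold change was 0.12 (standard error 0.090, edgeR's adjusted p = 0.542), and the 95% interval in whole-islet RNA ran from -0.087 to 0.32. Hif1a made up 51.8% to 54.9% of the summed CPM per kb of the pair in the knockout libraries and 52.2%, 44.1% and 46.4% in floxed 8, 18 and 19. Egln1, the oxygen sensor, ranged from 31.8 to 35.3 CPM over all 6 libraries, with a log2 fold change of -0.046 (standard error 0.084, edgeR's adjusted p = 0.818).

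The HIF targets without a role in glycolysis did not share a direction, and 0 of 8 passed, against 0.406% of all genes. With all libraries 6 had positive and 2 negative log2 fold changes (median 0.082), and 50.5% of all genes were negative. With libraries scaled to their totals the counts were 4 and 4 (65.9% of all genes negative). Without floxed 8 all 8 were positive (median 0.13), and 49.1% of all genes were negative. With the acinar covariate the median was -0.21. Kdm3a, a histone demethylase gene, had the smallest p of the 30 members. It read 27.3, 28.9 and 29.1 CPM across the knockouts against 24.3, 24.9 and 21.8 CPM across the controls. Every knockout library lay above every floxed library, and the log2 fold change was 0.26 (standard error 0.091, 95% interval from 0.056 to 0.47, edgeR adjusted p = 0.185). Ndrg1 also separated the groups, with 154, 148 and 154 CPM across the knockouts against 146, 129 and 127 CPM across the controls. The gap between knockout 12 and floxed 8 was narrow, and the log2 fold change was 0.18 (standard error 0.095, edgeR's adjusted p = 0.353). Exons of Ndrg1 overlap 419 bases of the antisense gene Gm17035, and antisense genes likewise overlap Bnip3 (504 bases), Hif1a (330 bases) and Higd1a (683 bases).

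Bnip3, a HIF target whose product marks mitochondria for removal, overlapped between the groups. It read 59.0, 51.6 and 61.5 CPM across the knockouts against 92.5, 49.9 and 55.5 CPM across the controls, so floxed 8 alone was high. The log2 fold change was -0.20 with all libraries (edgeR adjusted p = 0.703) and 0.12 without floxed 8 (adjusted p = 0.466). Ankrd37 and Higd1a, both low, were also highest in floxed 8, at 3.99 and 4.51 CPM. Bnip3l, a relative of Bnip3, Mxi1, a MYC antagonist, and P4ha1, a collagen prolyl hydroxylase gene, had log2 fold changes of 0.017, 0.14 and 0.10 and overlapped between the groups.

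Floxed 8 was the highest library in 10 of the 30 members (33.3%), against 24.9% of all genes tested, and the lowest in 4 (13.3%, against 22.0%). It was also highest in the means of the 6 alpha cell markers (7.37 log2 CPM against 6.29 to 6.91 in the others) and of the 4 delta and PP cell markers (8.63 against 7.76 to 8.13), whose part in these members' levels was not tested. When floxed 8 was left out, 14.3% of all genes passed the edgeR threshold, and of the 30 members 2 did (6.67%), Epas1 and Pgk1. Both were lower in knockout islets, a direction in which 5.7% of all genes passed. Without knockout 12 as well, 12.6% of all genes passed (5.19% of all genes being lower), and of the members Epas1 did.

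**Figure D5:**
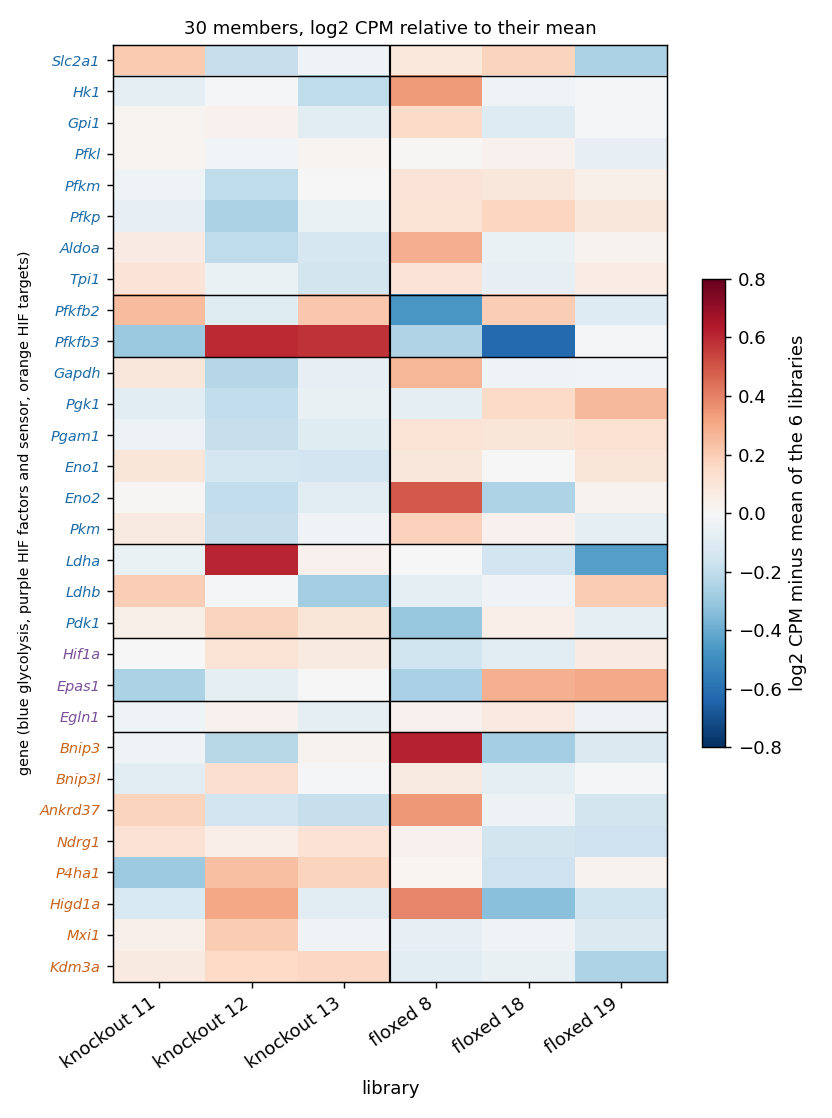
Log2 CPM of each member minus its mean over the 6 libraries (colour scale, red above and blue below the mean), with libraries as columns and genes in pathway order. Floxed 8 stands out for Bnip3, Eno2 and Pfkfb2, knockout 12 for Ldha, and knockout 12 and 13 for Pfkfb3.

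Other genes of the pathway, listed by role, also gave 0 calls, against 0.406% of all genes. Of 24 further glycolysis genes 15 were measured, with a median log2 fold change of -0.095. Of the 15, 12 were negative, against 50.5% of all genes, and the endocrine markers given above leaned the same way. Tigar, which encodes a phosphatase that opposes the action of the Pfkfb kinases, read 23.4, 18.4 and 23.0 CPM across the knockouts against 14.2, 16.9 and 17.2 CPM across the controls (log2 fold change 0.42, edgeR adjusted p = 0.141). Every knockout library of Tigar lay above every floxed library. Slc2a2 had a log2 fold change of -0.011 (adjusted p = 0.983).

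Of 36 further symbols of hypoxia response genes, an older name of Ero1a among them, 27 were measured, with a median log2 fold change of 0.035. At an unadjusted edgeR p below 0.05, 7 had higher values and 0 lower ones, in a table where 11% of all genes were higher and 6.96% lower at that level. Bhlhe40, a transcriptional repressor gene of the hypoxia and clock responses, read 40.8, 38.3 and 45.7 CPM across the knockouts against 26.6, 10.8 and 14.5 CPM across the controls (log2 fold change 1.27, edgeR adjusted p = 0.131). Cited2, which competes with HIF alpha for a coactivator, read 181, 170 and 199 CPM across the knockouts against 146, 71.1 and 103 CPM across the controls (log2 fold change 0.78, adjusted p = 0.162). For both genes floxed 8 was the highest floxed library, as it was for the immediate early and heat shock genes, and the part of the latter was not tested. Rora, a nuclear receptor gene, had a log2 fold change of 0.50 (adjusted p = 0.143), and Vegfa, the vessel growth factor, one of 0.20 (adjusted p = 0.519).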

How the data were processed

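Islet RNA of 6 mice, extracted with TRIzol, was read in pairs on a DNBSEQ-T7 instrument, per the labels' protocols. The submitters' processing notes name fastp, HISAT2, StringTie and the build mm10. Tool versions and how reads were assigned to genes or strands are not stated. The table the authors deposited holds estimated counts without normalization, and 1422 of its 11106 genes held a decimal in at least 1 library, among them Pfkp, Gapdh and Higd1a.

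Counts were rounded. Genes were kept by filterByExpr (minimum count 10, minimum total 15), which left 11080 genes, and all 30 members present passed. Libraries were scaled by TMM and compared with edgeR 4.0.16 (robust quasi-likelihood test, R 4.3.3), with p-values adjusted by Benjamini-Hochberg over all genes and a threshold of 0.05. Standard errors and intervals were derived from the F statistic, and log2 CPM carry a prior count of 2. CPM per kb used merged exons of the GENCODE basic annotation. No library was a copy of another (chi-square per gene of at least 20.2 within groups), and libraries are separately numbered mice. In simulated counts of this comparison (11078 genes tested) the test recovered 91% of genes with a log2 change of 1. It recovered 98% of those with a change of 2, and 13 of 202 calls were false. The members' own log2 fold changes ran from -0.25 to 0.63, and recovery of changes below 1 was not tested. Calls in the real counts also depended on which libraries were used, so these rates may not carry over to them.

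The members and lists were chosen with earlier results of these data known. Full statistics were given for the 2 members of each role with the smallest p, the most abundant member, and Hif1a, Epas1, Slc2a1, Ldha and Pdk1. The values of Eno2 and Bnip3 and the share of Pfkfb4 were added after they were seen. Of the lists of other pathway genes, the 2 with the smallest p and the 2 most abundant were named, except 1 gene that is not reported here. Alternatives were RLE scaling, library totals, insulin and acinar genes left out of scaling, other filters, DESeq2 1.42.0, limma-voom (limma 3.58.1), the acinar level as a covariate, and libraries left out.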

Additional observations from a re-analysis of the deposited data

How the results depend on the processing

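No member was called with all 6 libraries under any other scaling, filter or test, or with the acinar level (the mean log2 CPM of the acinar markers) as a covariate. The covariate fit called 0 of the 11080 genes tested. The acinar level did not overlap between the groups, so that fit cannot tell it from genotype, and turns of sign under it have no clear reading. The number of members called lower ran from 0 to 2 when 1 library was left out, with 2 without floxed 8, and was 1 without knockout 12 and floxed 8. With RLE scaling, insulin and acinar genes left out of scaling, other filters, DESeq2 and limma-voom, no member's log2 fold change turned in sign. Scaling by library totals turned Pfkl (-0.077), Bnip3l (-0.065) and Higd1a (-0.0038), and it moved the median of all genes to -0.092. With the acinar covariate the median was -0.21 for the HIF targets and 0.13 for Hif1a, Epas1 and Egln1, and 8 members turned: Slc2a1 (0.26), Pfkfb3 (-0.13), Ldhb (0.046), Epas1 (0.18), Egln1 (0.018), Bnip3l (-0.18), P4ha1 (-0.24) and Higd1a (-0.70). Without knockout 12 and floxed 8 there were 8 turns: Slc2a1 (0.10), Gpi1 (0.012), Gapdh (0.034), Eno2 (0.055), Pkm (0.034), Bnip3 (0.18), Bnip3l (-0.015) and Ankrd37 (0.092). With 1 library left out, the log2 fold change ran from -0.13 to 0.085 for Slc2a1, -0.083 to 0.041 for Gpi1, -0.012 to 0.035 for Pfkl, -0.37 to 0.0084 for Eno2, -0.18 to 0.057 for Ldhb, -0.37 to 0.12 for Bnip3, -0.045 to 0.060 for Bnip3l, -0.25 to 0.044 for Ankrd37 and -0.094 to 0.30 for Higd1a. The cause was not tested. Over all genes, calls numbered 45 with all libraries, 564 with DESeq2, 0 with the acinar covariate, 1584 without floxed 8, and 0 to 18 without any other single library. No paired analysis was possible because the groups share no replicate numbers. With 3 mice a group, each member's interval gives the precision of its difference.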
